A study of Mus musculus with 3 samples.

Results

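The amino acid and peptide transporters are the gene rows of the SLC6, SLC7, SLC36, SLC38 and SLC43 families, together with Slc3a2 and Slc15a2, chosen by symbol alone. They number 60 of the 32285 gene rows. Of these, 56 are transporter genes and 4 are opposite-strand transcripts that carry a family symbol with the ending os (Slc7a6os, Slc36a3os, Slc36a1os and Slc6a19os). By family there were 22 Slc6 rows, 16 Slc7 rows, 6 Slc36 rows, 11 Slc38 rows and 3 Slc43 rows besides Slc3a2 and Slc15a2. The study dissociated the hypothalamus of male mice, 8 weeks old at assignment, with collagenase II and counted transcripts in single cells with a droplet 3′ kit. QS was the library of the recovery state after heat exposure, HS that of the heat-exposed state, and PF that of mice matched for food intake, the control for what heat does to feeding. No source used here gives the strain, the number of mice behind a library, the temperature or the length of exposure and recovery. The RT mice of the design are not analysed here. Each group had 1 library, so no difference below has a replicate check: intervals are 95% intervals that cover counting error in these libraries only, and no p-value is given.

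Amino acids are charged or polar and cross membranes through carriers. SLC6 carriers use the sodium and chloride gradients to take up neurotransmitters, osmolytes and neutral amino acids; in the brain they end GABA and glycine signals. Several SLC7 proteins are light chains that reach the membrane bound to the heavy chain Slc3a2, while SLC38 carriers move glutamine and other small neutral amino acids, and SLC36 and some SLC38 proteins sit in the lysosomal membrane. The capillary endothelium of the brain is closed by tight junctions, so what the tissue receives from blood depends on the carriers of those cells.

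The libraries held 11720 barcodes in QS, 12510 in HS and 12836 in PF, with 93295920, 103891747 and 100727912 UMIs in that order. After filters and doublet calls 10782, 11630 and 11858 cells remained, with a median of 6162, 6298 and 6143 UMIs. Between 37 and 51 barcodes were shared by any pair of libraries. A cell was placed in the class of which it showed the most of 8 marker genes, with at least 3 detected and at least 2 more than for any other class. This gate took 30608 of 34270 cells, and 2601 of them, 8.50%, led by exactly 2 markers, while 2108 cells fell 1 marker short. The share was larger in smooth muscle-like cells, where 138 of 347 cells in QS, 220 of 453 in HS and 227 of 551 in PF led by exactly 2. Classes are called endothelial-like, astrocyte-like and so on, because the names rest on RNA of these markers. In endothelial-like cells the 8 endothelial markers summed to 20559 CPM in QS, 18159 in HS and 18707 in PF, against 133 to 148 CPM for the pericyte markers in the same cells. The B cell markers summed to 1011, 990 and 1055 CPM there and the erythroid markers to 3784, 1475 and 1352 CPM. Levels are UMI counts scaled to the class total (CPM) and are not divided by transcript length. Genes can differ in capture, so a level is compared mainly for 1 gene across classes or libraries. Where genes are set side by side, as in shares of UMIs, the values describe counts and not amounts of protein. The comparisons rest on the 7 classes that had 200 cells or more in each library. Endothelial-like cells were the largest class, with 3265 cells in QS, 3855 in HS and 4073 in PF, and pericyte-like and smooth muscle-like cells the smallest of the 7, with 347 to 551 cells. Neuron-like cells numbered 59, 46 and 42, fibroblast-like cells 62, 280 and 285, and their levels are given as description, outside the counts of calls. Levels of neuronal carriers thus rest on few cells. In neuron-like cells of HS the pituitary markers summed to 16403 CPM, against 10837 CPM for the neuron markers. In those of QS the sums were 393 and 13795 CPM. The part of pituitary RNA in the neuron-like levels was not tested.

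Of the 60 members, 27 reached 50 CPM in at least 1 of the 7 classes in at least 1 library, and 33 did not. Unless a small class is named, a member's highest and next classes are those among the 7 larger ones. The class with the highest mean level was astrocyte-like for 8 of the 27, endothelial-like for 6, microglia-like, ependymal-like, oligodendrocyte-like and pericyte-like for 3 each, and smooth muscle-like for 1. For 18 of them the top class stood at least 2-fold above the next, and for 13 at least 5-fold. The top class was the same in QS, HS and PF for 25 of 27; the exceptions were Slc38a2 and Slc43a2. The members together took 5776 CPM in QS, 5557 in HS and 5836 in PF in astrocyte-like cells and 4821, 4178 and 4436 CPM in endothelial-like cells. They took 1433, 1617 and 1564 CPM in oligodendrocyte-like cells.

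**Figure D1:**
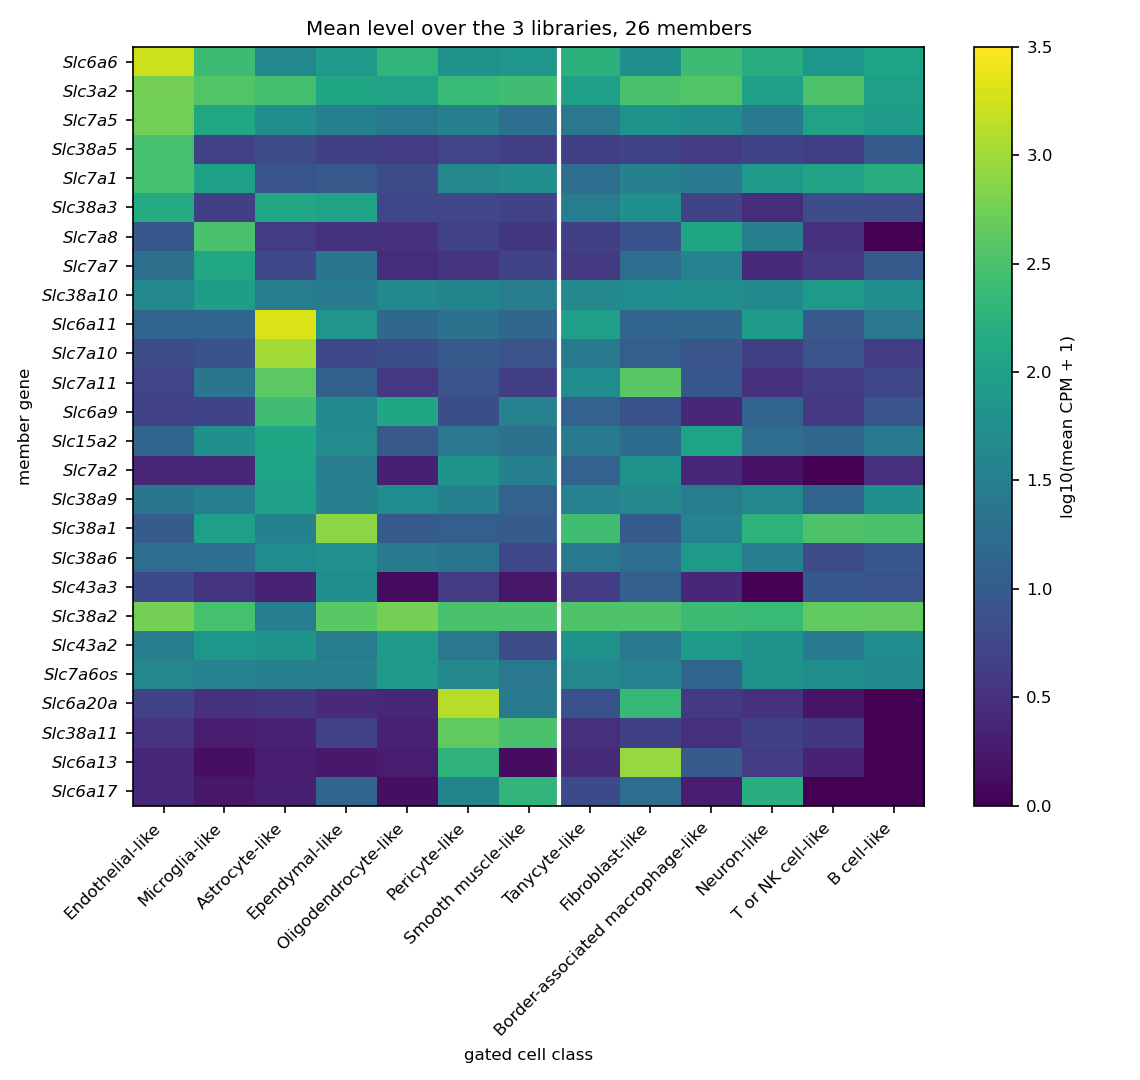
Mean level over the QS, HS and PF libraries of 26 of the members that reached 50 CPM, as log10(CPM + 1) by colour, with genes down the page grouped by top class and the gated classes across. The white line separates the 7 larger classes from 6 small ones; 7 rows peak in astrocyte-like cells and 6 in endothelial-like cells, while Slc38a2 and Slc3a2 are bright across most columns.

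The GABA transporters described here were divided between glia, mural cells and fibroblast-like cells. Slc6a11, the GABA transporter of astrocyte processes, lies on chromosome 6 (chr6:114131241-114249952, mm10) and was highest in astrocyte-like cells. Slc6a11 stood there at 2259 CPM in QS, 1908 in HS and 2074 in PF, 29.5 to 35.3 times its ependymal-like level, the next highest. Slc6a13, a GABA and taurine transporter known from the leptomeninges, had 201, 170 and 189 CPM in pericyte-like cells, 102 to 182 times its endothelial-like level. Its neighbour Slc6a12, the betaine and GABA transporter, had a mean of 5.74 CPM in pericyte-like cells and a higher one, 25.5 CPM, in the small fibroblast-like class.

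Slc6a13 was far higher in the few fibroblast-like cells, at 1695 CPM in QS, 488 in HS and 524 in PF. In an unsupervised clustering, cluster 22 held 74.2% of the fibroblast-like cells of QS but 29.6% of those of HS and 30.9% of those of PF, and cluster 19 held 25.8%, 70.4% and 68.8%. Within cluster 22 Slc6a13 stood at 2175 CPM (1995 to 2366) in QS, 2104 (1972 to 2242) in HS and 1977 (1851 to 2109) in PF. Within cluster 19 it stood at 419, 33.0 and 53.9 CPM, where QS had 16 cells. Slc7a11 was also higher in cluster 22, at 992 CPM (872 to 1125) in QS, 755 (677 to 839) in HS and 1107 (1014 to 1207) in PF, so that the HS interval lay below both others. In cluster 19 Slc7a11 had 10.7, 13.1 and 23.8 CPM. Slc6a20a had 508, 570 and 655 CPM in cluster 22 and 0, 4.35 and 5.60 CPM in cluster 19. Slc6a12 had 56.5, 88.3 and 47.1 CPM in cluster 22 and 10.7, 0.62 and 1.40 CPM in cluster 19, where QS had 1 UMI of it. The part of the cluster mix in the levels of the whole class was not tested. This split by cluster was chosen after the levels were seen, and these members may have helped to form the clusters.

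Slc6a9 and Slc7a10, carriers of glycine, were highest in astrocyte-like cells. Slc6a9, the glycine transporter of astrocytes, had 269 CPM in QS, 251 in HS and 279 in PF in astrocyte-like cells and 108, 118 and 114 CPM in oligodendrocyte-like cells. Slc7a10, a carrier that exchanges glycine, D-serine and other small neutral amino acids, was almost limited to astrocyte-like cells, at 971, 1020 and 1130 CPM, 102 to 131 times the pericyte-like level that came next. Slc6a5, the other glycine transporter and a marker of spinal and brainstem glycinergic neurons, had 1 UMI among all cells.

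Slc6a6, the taurine transporter (chr6:91684053-91759066), was the leading member of endothelial-like cells, where taurine is taken up from blood. It took 41.3% of the members' UMIs of these cells in QS, 32.8% in HS and 38.5% in PF. Its level there was 1989 CPM in QS, 1370 in HS and 1709 in PF, 5.85 to 7.92 times the microglia-like level. QS was 1.45 (1.43 to 1.47) times HS and 1.16 (1.15 to 1.18) times PF, and HS was 0.801 (0.791 to 0.812) of PF. None of these reached the 1.5-fold size used for a call. The order QS, then PF, then HS from high to low held in capillary-gated cells at 1781, 1232 and 1571 CPM for QS, HS and PF, in venous-gated cells at 1088, 699 and 827 CPM and in arterial-gated cells at 3059, 2421 and 2889 CPM. It also held within every endothelial-like cluster with at least 50 cells in each library compared: HS lay at 0.704 to 0.860 of PF in 6 clusters and QS at 1.30 to 1.82 times HS and 1.05 to 1.47 times PF in 5. Beside this stand the erythroid sums given above, and pituitary markers summed to 35.0 CPM in QS, 444 in HS and 74.6 in PF in endothelial-like cells; their part in the Slc6a6 order was not tested. In HS, Slc6a6 lay below PF in 7 of 7 classes, at 0.703 to 0.951 of PF; among the 5053 genes measured in every class, 6.47% lay below PF in all 7. In astrocyte-like cells its level was 5.29% to 6.71% of the library-wide one, a size that free RNA can give, and there the part of free RNA was not tested. In QS the gene was above PF in 2 of 7 classes.

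Endothelial-like cells also led for Slc7a5, Slc3a2, Slc38a5, Slc7a1 and Slc38a3, and these differed by vessel segment. Slc7a5, the light chain that carries large neutral amino acids such as leucine and tryptophan into the brain, stood at 831 CPM in QS, 892 in HS and 823 in PF in capillary-gated cells. Its level was lower elsewhere, at 410, 453 and 437 CPM in venous-gated cells and 77.0, 120 and 97.5 CPM in arterial-gated cells, where the level was 0.0927 to 0.135 of the capillary one. The heavy chain Slc3a2 varied less, with 765, 708 and 683 CPM in capillary-gated cells and 313, 361 and 349 CPM in arterial-gated cells. Slc38a5, a glutamine, serine and glycine carrier, had the steepest division, with 853, 800 and 812 CPM in venous-gated cells, 199, 232 and 232 CPM in capillary-gated cells and 5.47, 8.23 and 6.38 CPM in arterial-gated cells. Its arterial level was 0.0064 to 0.0103 of the venous one. Slc7a1, the carrier of arginine and lysine, and Slc38a3, a glutamine carrier, were highest in capillary-gated cells, at 447, 430 and 378 CPM and at 202, 176 and 177 CPM. The segment gates rest on their own marker genes, of which some venous ones respond to inflammation; 112 cells of QS, 239 of HS and 294 of PF passed the venous gate.

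**Figure D2:**
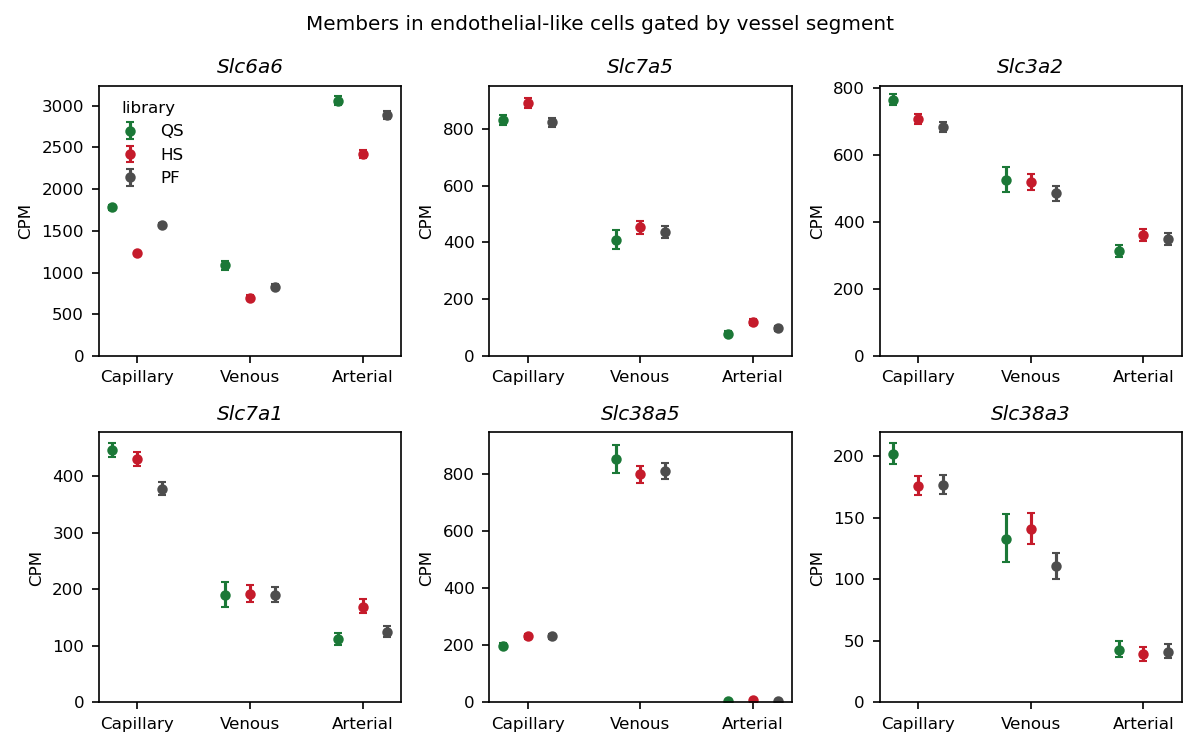
Levels in CPM of 6 members in endothelial-like cells gated as capillary, venous or arterial, 1 point per library (QS, HS, PF from left to right) with its 95% counting interval, on axes that start at 0. Slc7a5, Slc7a1 and Slc38a3 are highest in capillary-gated cells, Slc38a5 in venous-gated cells at 800 to 853 CPM, and Slc6a6 in arterial-gated cells at 2421 to 3059 CPM.

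The leading light chain of the heavy chain Slc3a2 differed between some of the 7 classes and was the same in others. Slc3a2 stood at 612 CPM in QS, 580 in HS and 545 in PF in endothelial-like cells, and at 97.9, 109 and 101 CPM in oligodendrocyte-like cells, its lowest class of the 7 in each library. HS was above PF for Slc3a2 in 7 of 7 classes, by 1.04 to 1.11 times, beside 4.75% of all genes measured in every class; no class reached a call. In endothelial-like cells Slc7a5 made up 93.0% of light chain UMIs in QS, 92.8% in HS and 92.3% in PF. Slc7a5 also led in ependymal-like, oligodendrocyte-like and pericyte-like cells of each library, at 34.1% to 57.3% of light chain UMIs. In smooth muscle-like cells Slc7a6 led, at 42.8% in QS, 55.2% in HS and 47.6% in PF. In microglia-like cells the leading light chain was Slc7a8, with 329, 300 and 307 CPM, 38.4 to 43.1 times the endothelial-like level; it carries a broader range of neutral amino acids. Slc7a7, which exchanges cationic for neutral amino acids, was also highest there, at 119, 113 and 124.9 CPM. In astrocyte-like cells the leading one was Slc7a10, followed by Slc7a11, the cystine-glutamate exchanger on which glutathione synthesis draws, at 415, 433 and 384 CPM. Light chains summed to 0.992 of Slc3a2 UMIs in QS, 1.11 in HS and 1.09 in PF in endothelial-like cells. They reached 5.44, 4.82 and 5.28 in astrocyte-like cells, and 0.235, 0.309 and 0.351 in pericyte-like cells. A 3′ count gives 1 UMI to a captured transcript whatever its length, but genes can differ in capture, so these quotients compare classes and not amounts of protein.

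**Figure D3:**
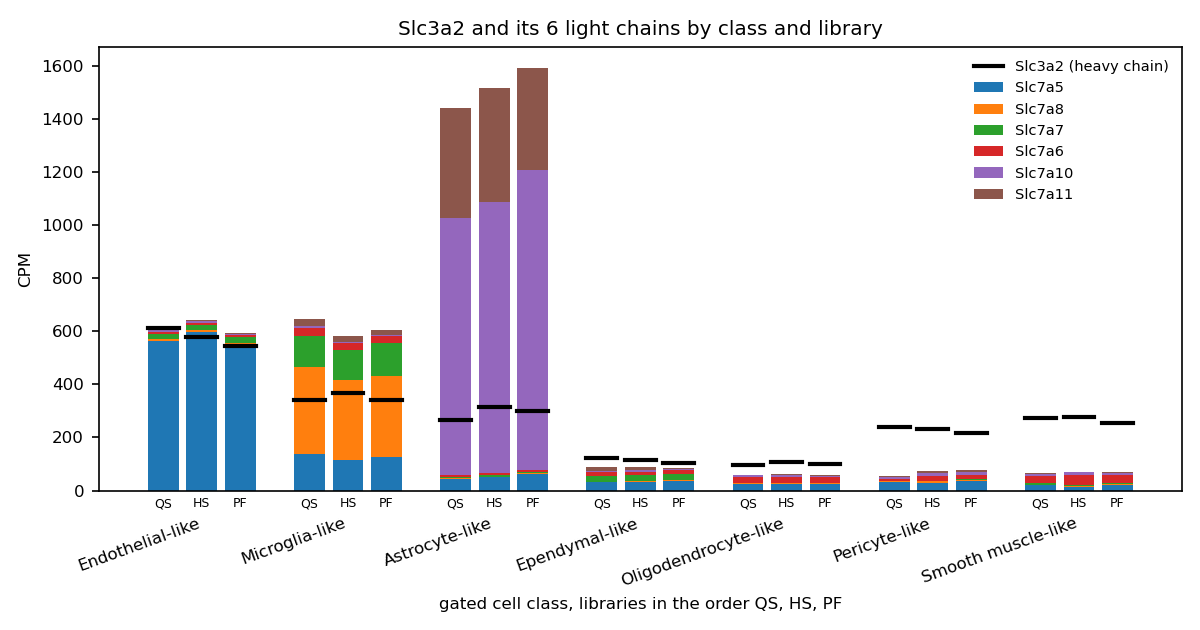
Stacked bars give the levels in CPM of 6 light chains, and black lines the level of Slc3a2, for each of 7 classes, with QS, HS and PF from left to right. Slc7a5 fills nearly the whole bar in endothelial-like cells, Slc7a8 leads in microglia-like cells and Slc7a10 in astrocyte-like cells, where the bars reach 1444 to 1593 CPM.

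The amino acid response element is the sequence through which the transcription factor ATF4 acts when amino acids are short, and the promoters of Slc7a11 and Slc7a7 are shown because they hold its letters. RefSeq windows of 250 bases before to 50 bases after a start (GRCm38.p6) were found for 43 of the 60 members, 64 windows in all. The letters TGATGNAA, on either strand, occurred in 4 of the 64, belonging to Slc7a11, Slc6a21 and Slc7a7 (overlapping windows of the last share a match), and in 3.97% of all 32851 windows. Slc7a11 has 2 matches that face each other, starting 66 and 47 bases before its start, and a window of Slc7a7 has 2 on its own strand, starting 141 bases and 1 base before the start. Where a gene had more than 1 window, the one with the most matches is shown, here and for Slc15a2 below. Other windows of Slc7a7 held fewer matches or none. The window of Slc7a11 (chr3:50443564-50443863, minus strand) and that of Slc7a7 (chr14:54417895-54418194, minus strand) are shown 5′ to 3′ with the matches in capitals.
Slc7a11: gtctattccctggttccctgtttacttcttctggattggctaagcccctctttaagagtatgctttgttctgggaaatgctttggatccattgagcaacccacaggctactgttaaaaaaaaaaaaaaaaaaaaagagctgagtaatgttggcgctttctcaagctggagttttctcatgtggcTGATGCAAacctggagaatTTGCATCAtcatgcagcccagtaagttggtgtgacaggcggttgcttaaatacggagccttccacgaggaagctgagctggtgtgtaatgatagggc
Slc7a7: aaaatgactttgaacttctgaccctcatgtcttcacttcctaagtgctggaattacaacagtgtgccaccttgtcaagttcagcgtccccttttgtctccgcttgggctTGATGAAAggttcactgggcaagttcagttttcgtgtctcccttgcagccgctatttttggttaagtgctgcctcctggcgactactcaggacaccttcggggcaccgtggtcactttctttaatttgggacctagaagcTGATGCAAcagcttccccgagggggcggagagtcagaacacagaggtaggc
A match describes the letters only. Slc7a11 and Slc7a7 differed between libraries by less than the call in the classes where each was highest. At low levels Slc7a11 was called in ependymal-like and endothelial-like cells, as described below.

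Carriers of cationic amino acids split by cell class. Slc7a1 had 332 CPM in QS, 304 in HS and 264 in PF in endothelial-like cells and 95.3, 95.6 and 96.8 CPM in microglia-like cells. Slc7a2, a second arginine carrier, stood at 94.1, 121 and 102 CPM in astrocyte-like cells, followed by pericyte-like cells at 66.2, 57.4 and 69.4 CPM. Slc7a3 had a mean of 6.74 CPM in endothelial-like cells.

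The glutamine and alanine carriers of SLC38 ranged from broad to narrow. Slc38a2, a sodium-coupled carrier that cells use to adapt to low amino acids, was the broadest. It stood at 583 CPM in QS, 568 in HS and 592 in PF in endothelial-like cells and 510, 636 and 606 CPM in oligodendrocyte-like cells, and astrocyte-like cells stood apart at 25.4, 38.9 and 27.9 CPM. Oligodendrocyte-like cells were at 0.874 (0.848 to 0.901) of endothelial-like cells in QS but at 1.12 (1.08 to 1.16) in HS, and the PF quotient of 1.02 (0.989 to 1.06) spanned 1. Slc38a1, its close relative, was highest in ependymal-like cells at 722, 849 and 740 CPM, and next in microglia-like cells at 89.3, 97.4 and 90.6 CPM. Slc38a3 was shared by endothelial-like, astrocyte-like and ependymal-like cells, with 158, 134 and 131 CPM, 116, 114 and 129 CPM, and 109, 105 and 104 CPM. Its endothelial-like and astrocyte-like levels did not differ beyond counting error in PF, at a quotient of 1.02 (0.927 to 1.12). Slc38a9, a lysosomal carrier that reports arginine to mTORC1, was highest in astrocyte-like cells at 105, 93.1 and 82.1 CPM. Slc38a10 was highest in microglia-like cells at 100 CPM in QS, 88.2 in HS and 85.7 in PF, and Slc38a6, among the 7 larger classes, in ependymal-like cells at 49.8, 61.6 and 64.6 CPM. The small border-associated macrophage-like class had more of Slc38a6, at 90.8, 66.3 and 84.1 CPM. In QS the ependymal-like level of Slc38a6 was 1.01 (0.870 to 1.17) times the astrocyte-like one, a difference within counting error.

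Among the larger classes, Slc6a20a, Slc38a11 and Slc6a17 were highest in mural cells, that is, pericyte-like or smooth muscle-like cells. Slc6a20a was not limited to them, since fibroblast-like cells of cluster 22 had 508 CPM in QS, 570 in HS and 655 in PF. Slc6a20a, a carrier of proline and other imino acids, was highest in pericyte-like cells at 1408 CPM in QS, 1301 in HS and 1294 in PF, 45.8 to 56.0 times the smooth muscle-like level. Its neighbour on chromosome 9, Slc6a20b, had a mean of 16.7 CPM there; the copies are much alike, and reads that match both cannot be told apart. Slc38a11 stood at 458, 452 and 425 CPM in pericyte-like cells and 300, 317 and 317 CPM in smooth muscle-like cells. Slc6a17, a vesicular carrier of neutral amino acids known from neurons, stood at 163, 230 and 200 CPM in smooth muscle-like cells, while neuron-like cells had 152, 132 and 176 CPM. Pericyte-like cells had 35.9, 35.6 and 37.6 CPM of it.

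In the SLC43 family, Slc43a2, a carrier of large neutral amino acids, had 88.4 CPM in QS, 77.0 in HS and 84.2 in PF in oligodendrocyte-like cells, and in HS its microglia-like level of 78.1 CPM and its astrocyte-like level of 78.1 CPM stood beside it. Slc43a3, which carries purine bases, was ependymal-like, at 51.7, 56.4 and 44.7 CPM. The opposite-strand transcript Slc7a6os was highest in oligodendrocyte-like cells at 67.5, 84.1 and 74.2 CPM.

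Of the 33 members under 50 CPM in every larger class, Slc7a12 had no UMI in any library, and 16 had 1 to 99 UMIs in all. Slc6a19, known as the neutral amino acid carrier of gut and kidney, had a mean of 42.5 CPM in ependymal-like cells, and Slc6a8, the creatine transporter, 41.6 CPM in oligodendrocyte-like cells. Slc6a15 and Slc7a14 were highest in the small neuron-like class, whose pituitary marker sums are given above, at a mean of 79.5 and 74.9 CPM. The monoamine transporters of the SLC6 family were nearly missing: Slc6a3, the dopamine transporter, had 31 UMIs, Slc6a2, the noradrenaline transporter, 20 UMIs, and Slc6a4, the serotonin transporter, 219 UMIs. The others under 50 CPM, not described elsewhere, were Slc6a7, Slc6a14, Slc6a16, Slc6a18, Slc6a19os, Slc7a9, Slc7a13, Slc7a15, Slc36a1os, Slc36a2, Slc36a3, Slc36a3os, Slc36a4, Slc38a4, Slc38a7, Slc38a8 and Slc43a1.

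Slc15a2 (chr16:36750177-36784962), the carrier that takes up di- and tripeptides, was highest among the 7 larger classes in astrocyte-like cells, at 99.2 CPM in QS, 123 in HS and 126 in PF. Microglia-like cells had 39.2, 71.1 and 59.8 CPM and ependymal-like cells 35.8, 49.1 and 58.5 CPM. Smooth muscle-like cells had 11.8, 23.6 and 23.9 CPM, pericyte-like cells 15.8, 19.97 and 35.0 CPM, endothelial-like cells 9.64, 12.9 and 16.0 CPM, and oligodendrocyte-like cells 5.83, 7.50 and 11.9 CPM. QS lay below HS and PF in each of the 6 classes measured, and pericyte-like cells, with too few UMIs for a ratio, had their lowest level in QS too. Of the genes measured in every class, 4.33% lay below PF and 5.39% below HS in all 7. Slc15a2 is not among those genes, and lying below in all 7 is a stricter condition than in the 6 measured for it. Library-wide, the gene had 26.1 CPM in QS, 37.2 in HS and 38.3 in PF.

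Its promoter window (chr16:36784913-36785212, minus strand), shown because QS lay below HS and PF in every class measured, holds the glucocorticoid receptor letters AGAACA on the opposite strand, in capitals, at 183 and 36 bases before the start.
Slc15a2: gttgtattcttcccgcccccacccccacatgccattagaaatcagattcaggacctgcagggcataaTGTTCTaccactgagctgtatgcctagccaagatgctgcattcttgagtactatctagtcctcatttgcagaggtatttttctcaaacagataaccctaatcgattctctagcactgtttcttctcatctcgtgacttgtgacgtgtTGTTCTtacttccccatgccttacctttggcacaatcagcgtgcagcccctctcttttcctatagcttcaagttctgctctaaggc
Those letters are common, in 19.0% of all windows on either strand and in 14 of the 64 member windows. The whole palindromic element was in 0 member windows and in 0.009% of all windows, and the heat shock element, 3 spaced GAA units of alternating strand, was in 1 member window, of Slc6a17, and in 0.603% of all.

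**Figure D4:**
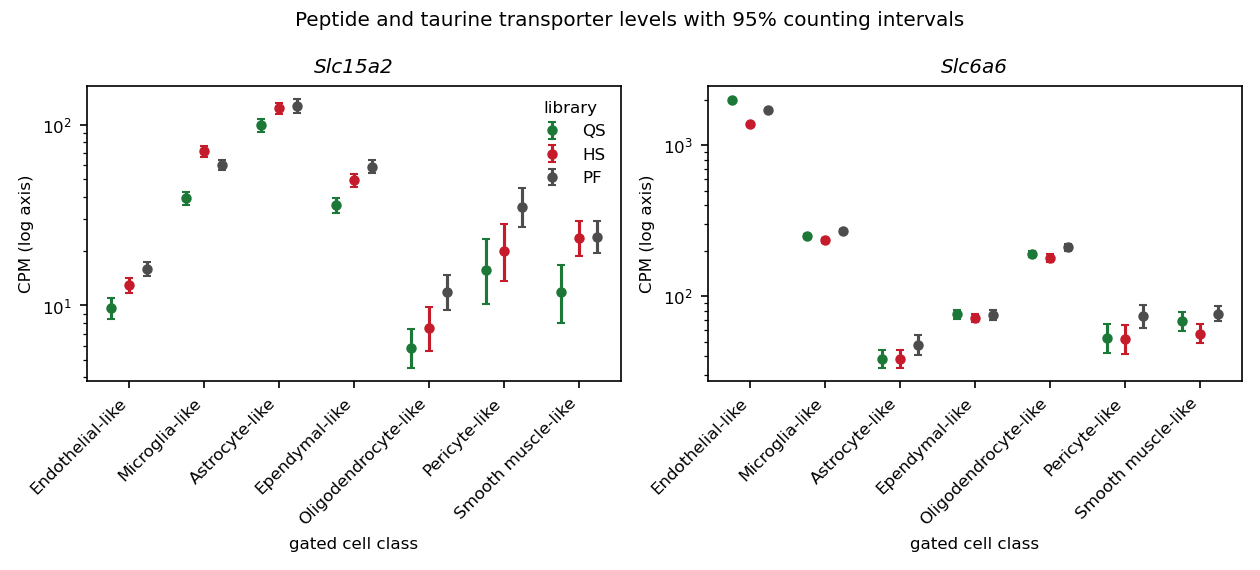
Levels in CPM on a log axis of Slc15a2 and Slc6a6 in 7 classes, 1 point per library (QS, HS, PF from left to right) with 95% counting intervals. For Slc15a2 the QS point is the lowest in every class, and for Slc6a6 the HS point is the lowest or level with QS.

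For the comparisons between libraries, a member and class pair was measured where both libraries together had at least 100 UMIs, and called where the levels differed at least 1.5-fold and the counting interval of the ratio left out 1. The members gave 153, 149 and 148 measured pairs, from 36 members, out of 420 possible. A pair is described by name where the higher library had at least 20 CPM and at least 20% of the gene's library-wide level. The HS over PF and QS over PF comparisons share the PF library, and QS over HS shares a library with each.

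Between HS and PF few members differed. Of 153 pairs, 5 were called higher in HS and 1 lower, beside 1.33% and 1.27% of 69886 pairs of all genes. The median log2 ratio was 0.0076 for the members and -0.0042 for all genes, and 78 pairs lay above 1 and 75 below. The rest of the solute carriers, 316 genes, gave 15 pairs higher and 18 lower of 942. They gave 11 and 23 of 933 for QS over PF, and 24 and 31 of 936 for QS over HS.

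Slc38a1 was called higher in HS in astrocyte-like cells, at 42.7 CPM against 25.6 CPM in PF, a ratio of 1.66 (1.32 to 2.11). The call was lost when clusters took the place of gates, with a ratio of 1.19, and within clusters 7 and 8 the ratios were 1.08 (0.611 to 1.90) and 1.35 (0.963 to 1.92). These clusters divided the class unevenly: cluster 8 held 802 cells of HS and 424 of PF, and cluster 7 held 549 and 587. A single cell gave 11.8% of the PF UMIs. Slc38a9 was higher in HS in pericyte-like cells, at 41.8 CPM against 22.05 CPM in PF, a ratio of 1.90 (1.27 to 2.87) that rests on 67 and 41 UMIs. Called pairs under the level for naming were Slc38a1 and Slc15a2 in oligodendrocyte-like cells and Slc7a11 in ependymal-like cells.

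**Figure D5:**
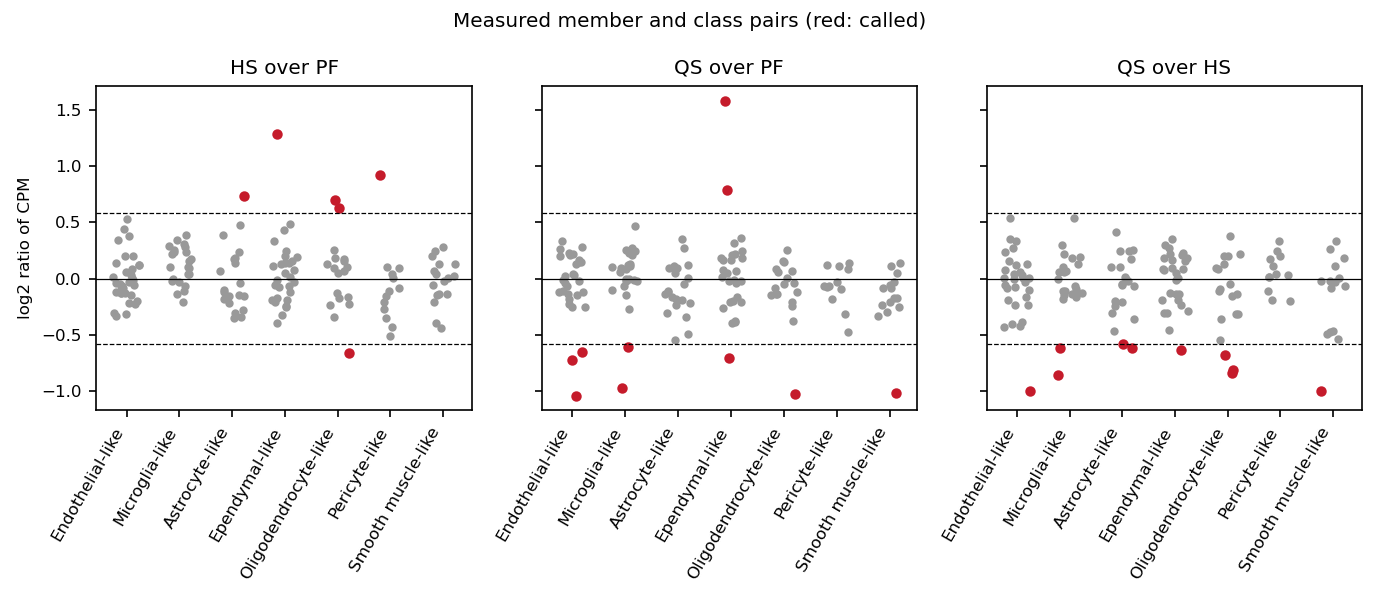
The log2 ratio of CPM of every measured member and class pair, in 3 panels by comparison with the 7 classes across; each point is 1 gene, red where called, and dashed lines mark 1.5-fold either way. Called pairs lie mostly above the line for HS over PF (5 of 6) and below it for QS over PF (8 of 10) and QS over HS (10 of 10).

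Between QS and PF, 2 of 149 pairs were called higher in QS and 8 lower, beside 1.54% and 2.42% of 69590 pairs of all genes. The median log2 ratio was -0.024 for the members and -0.0082 for all genes. Of the 8 lower calls, 5 were Slc15a2.

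Slc15a2 was called lower in QS than in PF in smooth muscle-like cells, with 11.8 CPM in QS and 23.9 CPM in PF and a ratio of 0.493 (0.318 to 0.745), which rests on 31 and 99 UMIs. In ependymal-like cells the ratio was 0.612 (0.538 to 0.696) over 398 and 597 UMIs, and in microglia-like cells 0.655 (0.587 to 0.730) over 558 and 843 UMIs. Oligodendrocyte-like and endothelial-like cells were also called, at 0.491 and 0.604. In astrocyte-like cells the ratio of 0.787 (0.696 to 0.889) was under the size of a call. Against HS, QS was called lower in smooth muscle-like cells at 0.499 (0.319 to 0.763) and in microglia-like cells at 0.551 (0.493 to 0.615), and stood at 0.729 (0.642 to 0.827) in ependymal-like cells. Of the microglia-like cells, cluster 3 held 932 of QS, 564 of HS and 692 of PF, and cluster 1 held 700, 757 and 907. The QS over PF ratio was 0.650 (0.549 to 0.767) within cluster 1 and 0.637 (0.548 to 0.741) within cluster 3. Weighting cells equally, by the mean of CPM per cell, brought the microglia-like ratio to 0.687, which ends the call. Thinned to 2000 UMIs, 6.98% of microglia-like cells in QS, 11.1% in HS and 9.32% in PF had a UMI of Slc15a2, against 12.96%, 21.5% and 20.9% unthinned. The share in oligodendrocyte-like cells, the class with the least, was 1.04%, 2.12% and 2.89%. Border-associated macrophage-like cells, which had 92.5, 129 and 97.4 CPM of the gene, are relatives of microglia, and their markers summed to 29.7 CPM in QS, 53.6 in HS and 55.2 in PF in microglia-like cells. Other lists were lower in QS there too: proliferating markers summed to 29.1, 83.5 and 71.0 CPM, fibroblast markers to 8.21, 36.0 and 25.7 CPM, smooth muscle markers to 65.8, 102 and 135 CPM, monocyte or dendritic cell markers to 17.8, 66.7 and 38.4 CPM, and endothelial markers to 233, 301 and 358 CPM. Oligodendrocyte markers were higher in QS, at 219, 104 and 128 CPM, and the part of these lists in the result was not tested.

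The pair called higher in QS over PF and named was Slc7a4 in ependymal-like cells, a member of the cationic carrier branch whose substrate is not settled. It had 21.3 CPM in QS and 12.3 CPM in PF, a ratio of 1.73 (1.39 to 2.16), with 1.76 in cluster 5 and 1.72 in cluster 15. The small tanycyte-like class had a higher mean of Slc7a4, at 31.6 CPM against 16.8 CPM in ependymal-like cells. The part of tanycyte RNA in the call was not tested. Slc7a11 was called in both directions at low levels. Ependymal-like cells had 15.6 CPM in QS, 12.7 in HS and 5.19 in PF, and endothelial-like cells 3.39 CPM in QS and 5.35 in PF, where 1 cell gave 24.6% of the PF UMIs. Library-wide, Slc7a11 had 49.1 CPM in QS, 48.7 in HS and 35.1 in PF, and it was highest in astrocyte-like cells. The part of astrocyte RNA in the ependymal-like call was not tested. The remaining lower calls were Slc43a3 in endothelial-like cells and Slc38a5 in microglia-like cells, the last of these at 3.6% of its library-wide level.

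Between QS and HS, 0 of 148 pairs were called higher in QS and 10 lower, beside 1.99% and 2.8% of 69480 pairs of all genes. The members had a median log2 ratio of -0.016 and all genes one of -0.0070. Slc15a2 is described above, and 3 further pairs follow. Slc38a9 had 24.8 CPM in QS and 38.6 CPM in HS in ependymal-like cells, a ratio of 0.643 (0.553 to 0.745), with 0.656 in cluster 5 and 0.576 in cluster 15; PF stood between them at 32.5 CPM. Slc36a1, a proton-coupled lysosomal carrier of small amino acids, had 18.2 CPM in QS and 27.9 CPM in HS in microglia-like cells, a ratio of 0.654 (0.552 to 0.774). Slc43a2 had 52.0 CPM in QS and 78.1 CPM in HS in astrocyte-like cells, a ratio of 0.666 (0.574 to 0.772), and PF was at 59.5 CPM. Both of these lay at the edge of the call and lost it under another scaling, at 0.667 and 0.670. Lower calls under the level for naming were Slc38a1 and Slc7a10 in oligodendrocyte-like cells, Slc38a2 in astrocyte-like cells and Slc43a3 in endothelial-like cells. Slc7a10, itself highest in astrocyte-like cells, had 4.87, 7.79 and 5.43 CPM in the oligodendrocyte-like cells of QS, HS and PF, and the 8 astrocyte markers summed to 81.9 CPM in QS, 119 in HS and 84.9 in PF there; their part in the call was not tested. Taking off 5% of each gene's library-wide level as free RNA raised the lower calls to 21 for QS over HS and 18 for QS over PF, and to 9 for HS over PF, with 5 higher for QS over HS.

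Genes around these carriers were followed in the same way, and the shares of all genes called, against which their counts stand, are 1.33% higher and 1.27% lower for HS over PF, 1.54% and 2.42% for QS over PF, and 1.99% and 2.8% for QS over HS. The ATF4 target genes, 18 in number, which include enzymes of serine and asparagine synthesis, gave 2 higher and 2 lower of 90 pairs for HS over PF, 2 and 3 of 88 for QS over PF, and 2 and 3 of 87 for QS over HS. Their median log2 ratios were -0.017, -0.0011 and -0.0003. Among them, Nupr1, a stress-response gene, had 2.52 CPM in QS, 1.73 in HS and 11.7 in PF in ependymal-like cells. Atf5, a transcription factor of the same response, had 9.59 CPM in QS, 8.07 in HS and 14.6 in PF in astrocyte-like cells. Trib3 had 8.49 CPM in QS, 4.84 in HS and 5.18 in PF in microglia-like cells, and Sesn2, a leucine sensor, had 10.8 CPM in QS and 6.45 CPM in HS in ependymal-like cells. Ddit4, an inhibitor of mTORC1 named here after its values were seen, had 83.4 CPM in QS and 128 CPM in HS in endothelial-like cells, so that the ratio was 0.652 (0.618 to 0.688). It was also called lower for QS over HS in microglia-like cells at 0.628 and in astrocyte-like cells at 0.656. All 3 lower calls of the list for QS over HS were thus Ddit4. For HS over PF the gene was called higher in microglia-like cells, at 1.58.

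The genes of lysosomal amino acid sensing, 19 in number, gave 1 higher and 0 lower of 116 pairs for HS over PF, 1 and 1 of 114 for QS over PF, and 0 and 1 of 115 for QS over HS. Rragd, a GTPase that recruits mTORC1 to the lysosome, had 59.8 CPM in QS and 38.7 CPM in PF in smooth muscle-like cells, a ratio of 1.55, and Castor1, an arginine sensor, had 30.9 CPM in QS and 47.0 CPM in PF in astrocyte-like cells, a ratio of 0.657. In ependymal-like cells Castor1 was called higher for HS over PF at a low level. It had 5.85 CPM in HS and 3.43 CPM in PF there, a ratio of 1.71 (1.13 to 2.62). Other amino acid carriers, 13 genes outside the families, gave 1 higher and 2 lower of 58, 0 and 2 of 57, and 2 and 2 of 58. Slc1a1, a neuronal glutamate transporter, had 41.3 CPM in QS and 18.9 CPM in HS in oligodendrocyte-like cells, a ratio of 2.19. Slc1a5, a carrier of glutamine and other neutral amino acids, had 6.93 CPM in QS, 3.45 in HS and 6.37 in PF in ependymal-like cells.

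Carriers of the blood-brain barrier for other substrates, 14 genes, gave 3 higher and 2 lower of 69 pairs for HS over PF, 1 and 11 of 67 (1.49% and 16.4%) for QS over PF, and 1 and 4 of 68 for QS over HS. In endothelial-like cells none of the 14 was called for QS over PF, 13 lay above 1 and the median log2 ratio was 0.20, against 0.011 for all genes of that class. Slc22a8, an organic anion carrier named after its values were seen, had 386 CPM in QS and 257 CPM in HS in endothelial-like cells, a ratio of 1.502. Of the 11 lower calls for QS over PF, 6 were in ependymal-like cells, where Abcb1a, for example, had 5.13 CPM in QS, 9.15 in HS and 9.99 in PF. The endothelial markers in those cells summed to 184 CPM in QS, 249 in HS and 325 in PF; their part in these lower calls was not tested.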

How the data were processed

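The deposited files hold raw counts of unique molecular identifiers (UMIs) per gene and barcode, 1 matrix per library, made by the authors with Cell Ranger on build mm10. The file headers name Cell Ranger 7.0.1, while the submitters' processing notes name Cell Ranger 5.0.0 and Seurat 3.1.2. No source used here says how reads that match several genes were treated.

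A barcode was kept with 500 UMIs or more, 200 genes or more and no more than 20% of UMIs from mitochondrial genes. This removed 211 barcodes in QS, 208 in HS and 194 in PF. Scrublet, run through scanpy 1.11.5, then removed 727, 672 and 784 doublets. Cells were gated by markers as described above, and the gate was set against Leiden clusters (leidenalg 0.10.2), where 99.7% of gated cells in named clusters had the same class. UMIs were summed per library and class and divided by the class total (CPM), with exact Poisson intervals for levels and exact conditional binomial intervals for ratios (scipy 1.17.1), and shares of cells have exact Clopper-Pearson intervals in the tables. The ratio code was tested on simulated data.

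A member is described by level where it reached 50 CPM in 1 of the 7 classes, and by difference where called with at least 20 CPM and 20% of the library-wide level. From the other lists up to 4 genes with the largest called ratios were named, with exceptions marked. The members and lists were chosen with earlier results of these data known, the gate's thresholds after cell counts were seen, and the within-cluster values and fibroblast-like clusters after the results were seen. Of 14 listed other amino acid carriers 13 were found. All 60 members were matched to coordinates by gene ID. Alternatives changed the scaling, the gate, the filters, the free RNA taken off, the doublets and the call. Some named results that these rules select are not reported here.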

Additional observations from a re-analysis of the deposited data

Results flagged for a closer look

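Slc7a11, the cystine-glutamate exchanger, was called in opposite directions between QS and PF in a pair of classes where its level was low. In ependymal-like cells QS over PF was 2.997, with 173 UMIs in QS and 53 in PF. In endothelial-like cells it was 0.634, with 83 UMIs in QS and 171 in PF, and 1 cell gave 24.6% of those of PF. Slc7a11 was highest in astrocyte-like cells, and its library-wide level was 49.1 CPM in QS, 48.7 in HS and 35.1 in PF. The part of astrocyte RNA in the ependymal-like ratio was not tested, nor was the difference between the classes.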

How the results depend on the processing

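No paired analysis was possible because each group had 1 library, and for the same reason no replicate could be left out. The named ratios kept their direction under all alternatives run: 86 stayed on the same side of the call and 5 lost it. Those 5 were Slc38a1 in astrocyte-like cells with clusters in place of gates (1.19), Slc36a1 in microglia-like cells and Slc43a2 in astrocyte-like cells with size factors (0.667 and 0.670), and, with a mean of CPM per cell, Slc15a2 (QS over PF, 0.687) and Slc36a1 (0.672) in microglia-like cells. Within clusters, an alternative added after the data were seen, 18 ratios stayed and 5 lost the call. Counts of called pairs moved more. With clusters there were 2 lower for HS over PF and 1 higher for QS over HS. With 5% of the library-wide level taken off as free RNA, there were 9 lower for HS over PF, 18 lower for QS over PF, and 5 higher and 21 lower for QS over HS. With doublets kept there were 3 lower for HS over PF, 4 higher for QS over PF and 1 higher for QS over HS. With at least 30 UMIs behind a ratio there were 4 lower for HS over PF, 4 higher and 20 lower for QS over PF, and 1 higher and 17 lower for QS over HS. The smaller of the other sizes of call tried gave 14 higher and 5 lower for HS over PF, 5 and 14 for QS over PF, and 5 and 21 for QS over HS. A ratio of at least 2 gave 1 higher and 0 lower for HS over PF, 1 and 3 for QS over PF, and 1 lower for QS over HS. The cause of the free RNA shift was not tested. Of 162 levels recomputed with clusters or with free RNA taken off, 132 stayed within their counting interval and 30 moved. A difference between mice cannot be told apart from a difference between groups, since a group is 1 library, and members with under 100 UMIs behind a ratio were not compared.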
